A study of Mus musculus with 16 samples.

Results

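The genes examined here were 10 genes of insulin signalling and glucose uptake, chosen by name from the 23179 genes in the deposited expression table: Slc2a4, Slc2a1, Insr, Irs1, Irs2, Irs3, Akt2, Pik3r1, Tbc1d4 and Hk2. All 10 were in the table and all 10 passed the filter on low values. They were measured by stranded total RNA sequencing of mammary adipose tissue from wild-type female C57BL/6NCrl mice that had arrived at 8 weeks of age. Control mice were fed a low-fat diet (10% kcal fat) throughout (CON-LFD, n = 4). Mice with diet-induced obesity were fed a high-fat diet (60% kcal fat) for 15 weeks and then either stayed on it (DIO-HFD, n = 4), were switched to the low-fat diet (DIO-LFD, n = 4) or were switched to it after a vertical sleeve gastrectomy, an operation that removes much of the stomach (DIO-VSG, n = 4). Every mouse outside the DIO-VSG group had sham surgery. All 16 mice carried a tumor of E0771 cells, a mouse mammary cancer line that had been injected into fat pad 4 at week 22. The tissue sequenced was the tumor-free pad 9 of the other side, collected about 4 weeks later, so that no group was free of tumor. Replicates were numbered in the sample titles and nothing in the labels ties equal numbers together.

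Insulin binds the receptor encoded by Insr, which phosphorylates docking proteins of the insulin receptor substrate family (Irs1, Irs2 and, in rodents, Irs3). These recruit phosphoinositide 3-kinase through its regulatory subunit, encoded by Pik3r1, and the kinase then activates Akt2. Akt2 phosphorylates the Rab GTPase-activating protein encoded by Tbc1d4 (AS160), which releases storage vesicles that carry the glucose transporter GLUT4, encoded by Slc2a4, to the surface of adipocytes and muscle cells. Slc2a1 encodes GLUT1, the transporter that most cells use without insulin, and Hk2 encodes hexokinase 2, which traps the glucose taken up by phosphorylating it. Insulin controls much of this pathway through phosphorylation and protein movement, which RNA sequencing does not measure.

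Values are normalized counts, that is, reads per gene after scaling for library depth, at 46907377 to 57610899 reads per library. Each change is a difference in log2(normalized count + 1) with the standard error (SE) of a limma fit over 21218 genes, and P values were adjusted over all of those genes by the Benjamini-Hochberg method. In bulk tissue, fewer cells of a type and less RNA per cell cannot be told apart. The tissue held adipocytes in every library, with all 20 adipocyte markers detected and Adipoq, which encodes adiponectin, at 30428 to 123530 normalized counts. Several libraries stood apart from the others of their group. DIO-HFD replicate 1 had the lowest adipocyte score (-1.15, the mean log2 deviation of the markers from their mean over libraries). DIO-LFD replicate 1 had the highest erythroid score (4.00), and CON-LFD replicate 4, DIO-LFD replicate 4 and DIO-VSG replicate 2 had skeletal muscle scores of 3.64, 5.38 and 3.15. The T cell score ran from -3.34 to 2.16 within the DIO-HFD group and from 1.36 to 2.05 within the DIO-VSG group.

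The 2 genes that differed most between DIO-HFD and the other 3 groups were at the 2 ends of glucose entry, Slc2a4 and Hk2. In the study the DIO-HFD mice were also heavier than every other group. Diet at collection and body weight thus cannot be told apart. In DIO-HFD tissue Slc2a4 and Hk2 both had about 0.54 times the CON-LFD level and were nearer to the CON-LFD level in DIO-LFD tissue. These differences had unadjusted P values of 0.0104 or less and did not pass the adjusted threshold. Insr and the 3 substrate genes showed no such difference: in the 3 comparisons with DIO-HFD their log2 changes ran from -0.64 to 0.39 and their unadjusted P values from 0.205 to 0.945. No member passed an adjusted P value of 0.05 in any of 7 comparisons, and few genes of the whole table did by this fit. The study, which tested with DESeq2, reported numerous differentially expressed genes for each group compared with DIO-HFD. The reason for the unlike counts was not tested. With limma, 0.0377% of all tested genes passed in DIO-HFD against CON-LFD, 0.00471% in DIO-LFD against CON-LFD, and 0% in DIO-LFD against DIO-HFD, in DIO-VSG against DIO-HFD, in DIO-VSG against DIO-LFD, in DIO-VSG against CON-LFD and in DIO-HFD against the mean of the other 3 groups. With limma-voom on the whole reads no member passed either, and no gene of the table did. These counts over the table depended on the setting. In DIO-VSG against DIO-LFD 1533 genes passed with only the libraries of those groups in the fit, and with the adipocyte marker score in the fit 153 did in DIO-VSG against DIO-HFD and 410 in DIO-HFD against the other 3 groups. Without CON-LFD replicate 3 the counts were 128 in DIO-HFD against CON-LFD, 873 in DIO-VSG against CON-LFD and 19 in DIO-HFD against the other 3 groups. No member was among the genes called in any of these fits.

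**Figure D1:**
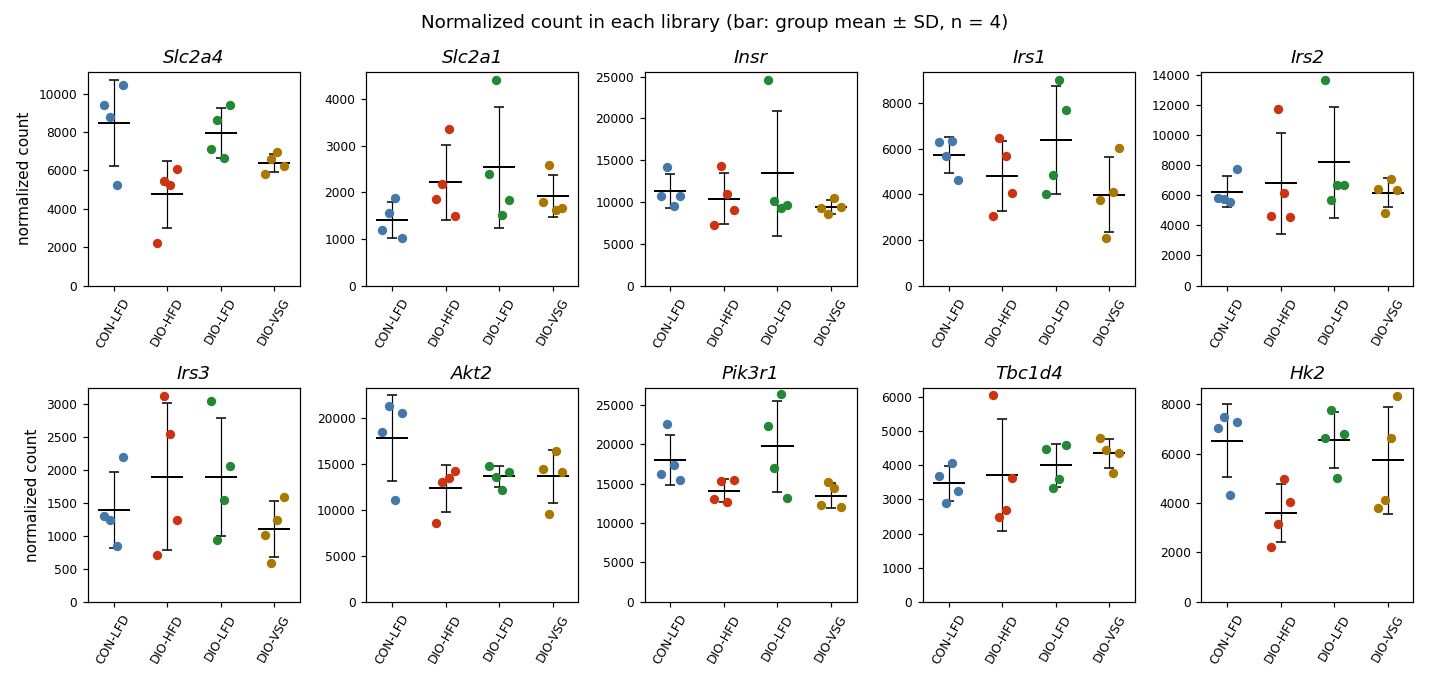
Normalized count (linear axis from 0) of each of the 10 genes in each of the 16 libraries, by group; points are single libraries, the long bar is the group mean and the whiskers are the SD (n = 4). The 4 DIO-HFD libraries of Hk2 lie at 2223 to 4954 and those of DIO-LFD at 5015 to 7752, and 1 DIO-LFD library stands far above the rest for Insr.

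Slc2a4 (chr11:69942539-69948188 on GRCm38, minus strand, 11 exons) encodes the insulin-responsive transporter of adipocytes. In CON-LFD tissue the libraries had 9394, 8783, 5246 and 10427 normalized counts (mean 8463 ± 2249 SD, n = 4). In DIO-HFD tissue they had 2198, 5447, 5265 and 6089 (mean 4750 ± 1738). In DIO-LFD tissue they had 7108, 8621, 6647 and 9413 (mean 7947 ± 1291), and in DIO-VSG tissue 5802, 6607, 6937 and 6214 (mean 6390 ± 491). All DIO-HFD libraries were below all DIO-LFD libraries, whereas 1 CON-LFD library and 1 DIO-VSG library lay within the DIO-HFD range. The log2 change was -0.89 ± 0.28 SE in DIO-HFD relative to CON-LFD (unadjusted P = 0.00682, adjusted P = 0.246). It was 0.83 ± 0.28 in DIO-LFD relative to DIO-HFD (unadjusted P = 0.0104, adjusted P = 0.463) and 0.53 ± 0.28 in DIO-VSG relative to DIO-HFD (unadjusted P = 0.0818, adjusted P = 0.401). Without DIO-HFD replicate 1, the library with 2198, these 3 values were -0.55, 0.49 and 0.19, and the change in DIO-HFD against the other 3 groups was -0.41.

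Hk2 (chr6:82725025-82774454, minus strand, 18 exons) had much the same order. The CON-LFD libraries had 7017, 7471, 4313 and 7279 normalized counts (mean 6520 ± 1483), the DIO-HFD libraries 2223, 3164, 4954 and 4056 (mean 3599 ± 1173), the DIO-LFD libraries 6648, 7752, 5015 and 6794 (mean 6552 ± 1136) and the DIO-VSG libraries 3797, 4105, 6641 and 8345 (mean 5722 ± 2164). The DIO-HFD and DIO-LFD ranges did not overlap and the DIO-VSG libraries fell into a pair within the DIO-HFD range and a pair above it. The log2 change was -0.89 ± 0.29 in DIO-HFD relative to CON-LFD (unadjusted P = 0.00809, adjusted P = 0.250), 0.91 ± 0.29 in DIO-LFD relative to DIO-HFD (unadjusted P = 0.00687, adjusted P = 0.456) and 0.65 ± 0.29 in DIO-VSG relative to DIO-HFD (unadjusted P = 0.0393, adjusted P = 0.363). The DIO-VSG value was 0.44 without DIO-HFD replicate 1 and 0.45 without DIO-VSG replicate 4, both with an unadjusted P value above 0.05. Against the mean of the 3 groups on the low-fat diet at collection, DIO-HFD differed by -0.82 ± 0.23 for Hk2 (adjusted P = 0.212) and by -0.75 ± 0.23 for Slc2a4 (adjusted P = 0.231).

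Both genes kept their sign in DIO-HFD relative to CON-LFD under all 33 alternative settings, with log2 changes of -1.10 to -0.54 for Slc2a4 and -1.07 to -0.29 for Hk2. Many of these settings, such as another filter or leaving out a DIO-LFD or DIO-VSG library, cannot alter this change. The number of settings thus overstates what was tested. When libraries were weighted by quality, the adjusted P values of this comparison were 0.0421 for Slc2a4 and 0.0353 for Hk2. That setting called 19.8% of all genes in DIO-HFD against CON-LFD, and 2 of the 10 members were among them. In DIO-HFD against the other 3 groups it called 20.5% of all genes and 3 members, which were Slc2a4 (-0.40), Hk2 (-0.66) and Irs2 (-0.43). The smallest values for Hk2, -0.29 in DIO-HFD relative to CON-LFD (unadjusted P = 0.282) and 0.48 for DIO-LFD against DIO-HFD (unadjusted P = 0.0600), came from adding the score of thermogenic adipocyte markers to the fit. Slc2a4 was at -0.54 (unadjusted P = 0.127) and 0.58 (unadjusted P = 0.0742) there.

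The thermogenic adipocyte markers, genes of heat-producing beige and brown fat, moved with both genes. All 10 were detected and all 10 had a negative log2 change in DIO-HFD relative to CON-LFD, 7 with an unadjusted P value below 0.05 and none past the adjusted threshold, with a median of -2.56. Their summed level was 1003 to 4199 normalized counts in DIO-HFD tissue, 3689 to 62460 in CON-LFD, 6511 to 12924 in DIO-LFD and 2848 to 44073 in DIO-VSG tissue. Over the 16 libraries, which come from 4 groups and share their depth scaling, Pearson's r between this score and the log2 level was 0.82 for Hk2 and 0.66 for Slc2a4. The adipocyte markers were also lower in DIO-HFD than in CON-LFD tissue for 16 of 20 genes (median log2 change -0.44). This rested largely on DIO-HFD replicate 1, without which 13 of 20 were lower (median -0.11). Over the 16 libraries r with the adipocyte score was 0.74 for Slc2a4 and 0.66 for Hk2. With the adipocyte score in the fit, the change in DIO-HFD relative to CON-LFD was -0.60 for Slc2a4 and -0.62 for Hk2. Mammary epithelium markers moved with both genes too. All 15 had a negative log2 change in DIO-HFD relative to CON-LFD, 5 with an unadjusted P value below 0.05 (median -0.70), and 11 of 15 were positive for DIO-LFD against DIO-HFD, 10 of them below 0.05 (median 0.72). They summed to 75578 to 173998 normalized counts in DIO-HFD tissue, 155671 to 203752 in CON-LFD, 201711 to 277137 in DIO-LFD and 122985 to 186813 in DIO-VSG, with none at 0 in any library. Their score had an r of 0.64 with Slc2a4 and 0.51 with Hk2. The part that these cells take in the levels of Slc2a4 and Hk2 was not tested beyond the fits with the thermogenic and adipocyte scores.

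Skeletal muscle, which lies next to the fat pad, also uses both genes. Its 18 markers summed to 1817 to 3723 normalized counts in DIO-HFD tissue, with Tcap and Myot at 0 in some of those libraries, and reached 43322, 197606 and 33224 in single libraries of CON-LFD, DIO-LFD and DIO-VSG. Without the 3 libraries with the highest muscle scores, Slc2a4 was at -0.77 and Hk2 at -0.82 in DIO-HFD relative to CON-LFD.

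**Figure D2:**
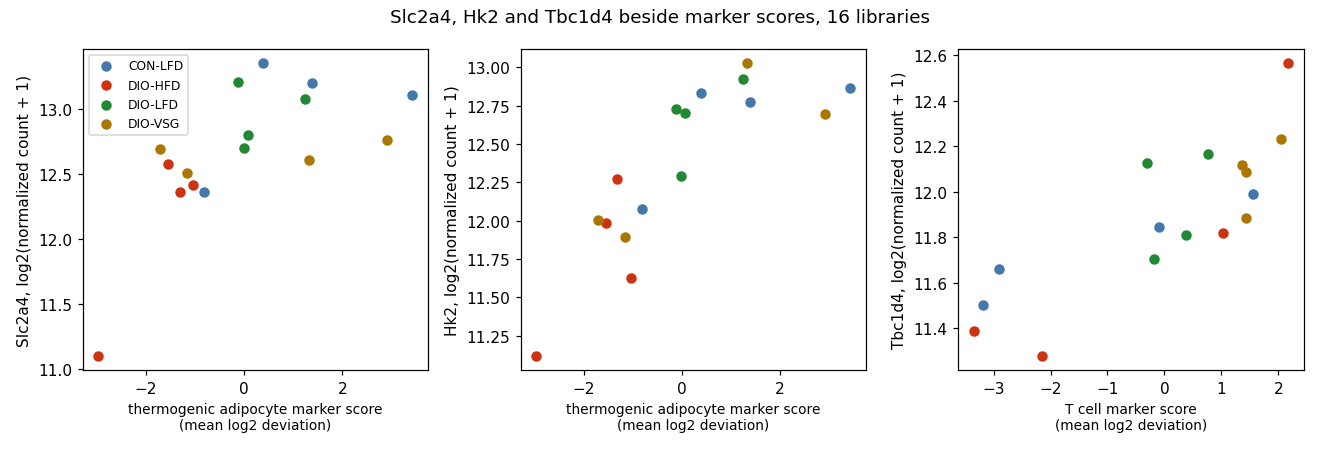
Log2(normalized count + 1) of Slc2a4, Hk2 and Tbc1d4 in the 16 libraries against the marker score named on each horizontal axis (mean log2 deviation from the mean over libraries); colors are groups. The DIO-HFD libraries have the thermogenic scores from -2.97 to -1.04, and Tbc1d4 is highest in the DIO-HFD library with the highest T cell score, 2.16.

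Slc2a1 (chr4:119108711-119137983, plus strand, 10 exons), the insulin-independent transporter, had another order. The CON-LFD libraries had 1201, 1554, 1877 and 1018 normalized counts (mean 1413 ± 382), the DIO-HFD libraries 1853, 2173, 3362 and 1490 (mean 2219 ± 811), the DIO-LFD libraries 2393, 4423, 1509 and 1830 (mean 2539 ± 1308) and the DIO-VSG libraries 1785, 2587, 1629 and 1672 (mean 1918 ± 451). CON-LFD had the lowest mean, and its range overlapped that of every other group. The log2 change relative to CON-LFD was 0.62 ± 0.32 in DIO-HFD (unadjusted P = 0.0721, adjusted P = 0.434), 0.76 ± 0.32 in DIO-LFD (unadjusted P = 0.0332, adjusted P = 0.753) and 0.45 ± 0.32 in DIO-VSG (unadjusted P = 0.179, adjusted P = 0.428). Leaving out single libraries moved the DIO-LFD value between 0.45 (without DIO-LFD replicate 2) and 0.97, and the DIO-HFD value was 0.40 without DIO-HFD replicate 3.

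Per kilobase of the longest coding transcript, Slc2a4 stood above Slc2a1 in all 16 libraries, but by different factors. The ratio was 3.61 to 13.2 in CON-LFD tissue, 1.53 to 5.28 in DIO-HFD, 2.52 to 6.64 in DIO-LFD and 3.30 to 5.50 in DIO-VSG tissue. On the log2 scale the group means were 2.95 ± 0.81, 1.43 ± 0.78, 2.13 ± 0.63 and 2.13 ± 0.31 (SD, n = 4), and the ranges overlapped. Hk2 was set beside Hk1, the hexokinase of most tissues. The ratio of Hk2 to Hk1 was 0.751 to 1.37 in CON-LFD, 0.357 to 0.739 in DIO-HFD, 0.845 to 1.15 in DIO-LFD and 0.670 to 1.53 in DIO-VSG tissue. All DIO-HFD libraries thus lay below all CON-LFD and DIO-LFD libraries for this ratio and overlapped with DIO-VSG. Akt2 to Akt1 was 0.956 to 1.64, 0.650 to 1.10, 0.922 to 1.20 and 0.770 to 1.36 in the same order of groups, and all neighbours overlapped. Irs1 stood below Irs2 in all 16 libraries, at ratios of 0.202 to 0.930. No test was made on the ratios.

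**Figure D3:**
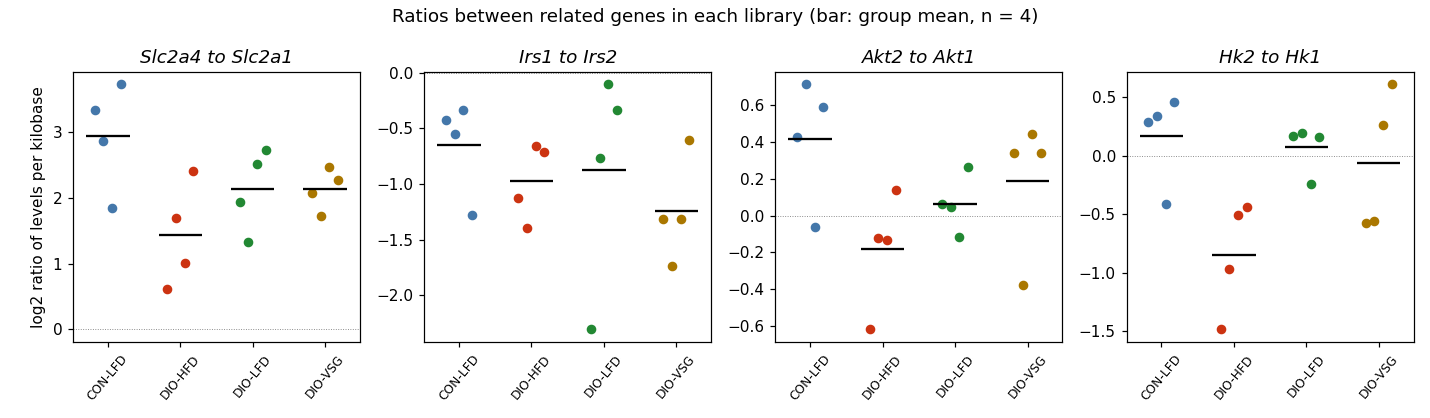
Log2 ratio of the levels per kilobase of transcript for 4 pairs of related genes in each of the 16 libraries (points) with the group mean (bar, n = 4); the dotted line is an equal level. The DIO-HFD libraries have Hk2 to Hk1 values of -1.48 to -0.44, below every CON-LFD and DIO-LFD library.

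The receptor gene Insr (chr8:3122061-3279617, minus strand, 21 exons) had 9566 to 14209 normalized counts in CON-LFD tissue (mean 11293 ± 2016), 7204 to 14328 in DIO-HFD (mean 10376 ± 3049) and 8554 to 10526 in DIO-VSG (mean 9426 ± 817). In DIO-LFD tissue 3 libraries had 9266 to 10092 and replicate 1 had 24623. Relative to CON-LFD, the log2 change in DIO-HFD was -0.15 ± 0.28 with a 95% interval from -0.75 to 0.45. Relative to DIO-HFD it was 0.28 ± 0.28 in DIO-LFD and -0.10 ± 0.28 in DIO-VSG. Without DIO-LFD replicate 1 the DIO-LFD value was -0.056.

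Of the docking proteins, Irs1 (chr1:82233101-82291416, minus strand, 2 exons) had 6273, 5681, 6332 and 4624 normalized counts in CON-LFD tissue, 3058, 6445, 5662 and 4041 in DIO-HFD, 3992, 4835, 9014 and 7670 in DIO-LFD, and 3726, 2084, 4103 and 6037 in DIO-VSG. DIO-VSG had the lowest mean (3988 ± 1623) and DIO-LFD the highest (6378 ± 2359), with overlapping ranges. The log2 change in DIO-VSG relative to DIO-LFD was -0.70 ± 0.33 (unadjusted P = 0.0505, adjusted P = 0.510), and relative to CON-LFD it was -0.61 ± 0.33 (unadjusted P = 0.0829, adjusted P = 0.318). Without DIO-VSG replicate 2, the library with 2084, these values were -0.42 and -0.33. The DIO-HFD value relative to CON-LFD was -0.30 ± 0.33, and -0.11 without DIO-HFD replicate 1.

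Irs2 (chr8:10984681-11008458, minus strand, 2 exons) lay between 4571 and 7741 normalized counts in 14 libraries, and at 11720 in DIO-HFD replicate 2 and 13666 in DIO-LFD replicate 1. The group means were 6220 ± 1023 in CON-LFD, 6772 ± 3381 in DIO-HFD, 8181 ± 3688 in DIO-LFD and 6153 ± 955 in DIO-VSG tissue. The log2 change was 0.021 ± 0.30 in DIO-HFD relative to CON-LFD, 0.30 ± 0.30 in DIO-LFD relative to DIO-HFD and -0.038 ± 0.30 in DIO-VSG relative to DIO-HFD. The second of these was 0.018 without DIO-LFD replicate 1 and 0.60 without DIO-HFD replicate 2.

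Irs3 (chr5:137643031-137645714, minus strand, 2 exons), which in rodents is mainly an adipocyte gene, varied most in proportion, from 586 to 3109 normalized counts. Within the DIO-HFD group alone it ran from 709 in replicate 1 to 3109 in replicate 2. Its group means were 1390 ± 570 in CON-LFD, 1896 ± 1114 in DIO-HFD, 1891 ± 890 in DIO-LFD and 1107 ± 422 in DIO-VSG. The 95% interval of the log2 change in DIO-VSG relative to DIO-HFD, -1.67 to 0.39 around -0.64, was too wide to separate the groups. Leaving out 1 library at a time moved this change between -1.04 (without DIO-HFD replicate 1) and -0.33. Pearson's r of Irs3 with the adipocyte score was 0.81 and with the endothelial score 0.74.

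Insr, Irs2 and Irs3 went together across libraries more than with the genes downstream. Pearson's r over the 16 libraries was 0.83 for Insr with Irs2, 0.80 for Irs2 with Irs3 and 0.66 for Insr with Irs3, and 0.14 to 0.52 for Irs1 with the 3. DIO-LFD replicate 1, the highest library for both Insr and Irs2, was also the highest for the erythroid score (Hbb-bs, a beta-globin gene, at 181465 normalized counts against 7069 to 22242 in the other 15 libraries) and for the endothelial score (0.85). The part of blood and vessel content in these values was not tested.

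Pik3r1 (chr13:101680563-101768217, minus strand, 16 exons) encodes the main regulatory subunit of phosphoinositide 3-kinase. It had 16296, 22578, 17440 and 15524 normalized counts in CON-LFD tissue, 13077, 15292, 12623 and 15417 in DIO-HFD, 22326, 17027, 26421 and 13181 in DIO-LFD, and 12278, 15182, 14502 and 12020 in DIO-VSG. All DIO-HFD and all DIO-VSG libraries were below all CON-LFD libraries and DIO-LFD overlapped with every group. The log2 change was 0.44 ± 0.19 in DIO-LFD relative to DIO-HFD (unadjusted P = 0.0336, adjusted P = 0.543), -0.51 ± 0.19 for DIO-VSG against DIO-LFD (unadjusted P = 0.0171, adjusted P = 0.509) and -0.40 ± 0.19 in DIO-VSG relative to CON-LFD (unadjusted P = 0.0490, adjusted P = 0.281). It was -0.34 ± 0.19 in DIO-HFD relative to CON-LFD (unadjusted P = 0.0922, adjusted P = 0.468) and -0.065 ± 0.19 in DIO-VSG relative to DIO-HFD. Without DIO-LFD replicate 3, the library with 26421, the change was 0.28 in DIO-LFD against DIO-HFD and -0.35 in DIO-VSG against DIO-LFD, both with an unadjusted P value above 0.05. Without CON-LFD replicate 2 it was -0.22 in DIO-HFD and -0.29 in DIO-VSG against CON-LFD. Pik3r1 was the member at which the weight loss groups differed most by unadjusted P value.

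Akt2 (chr7:27591552-27640826, plus strand, 14 exons), the kinase step, had 18460, 21263, 11063 and 20548 normalized counts in CON-LFD tissue, 8596, 13025, 13433 and 14235 in DIO-HFD, 14712, 13501, 12106 and 14142 in DIO-LFD and 14462, 9557, 16414 and 14061 in DIO-VSG. In CON-LFD tissue 3 libraries were above all 12 others and 1 was among them. The log2 change in DIO-HFD relative to CON-LFD was -0.51 ± 0.22 (unadjusted P = 0.0346, adjusted P = 0.347), and without DIO-HFD replicate 1 it was -0.35 with an unadjusted P value above 0.05. The change relative to DIO-HFD in DIO-LFD and DIO-VSG was 0.17 ± 0.22 and 0.14 ± 0.22, and relative to CON-LFD -0.35 ± 0.22 and -0.37 ± 0.22. Without CON-LFD replicate 3, the library with 11063, the values relative to CON-LFD were -0.56 and -0.59. The DIO-LFD value relative to DIO-HFD was 0.0026 without DIO-HFD replicate 1. Pearson's r of Akt2 over the libraries was 0.75 with Slc2a4 and 0.71 with Hk2, and Slc2a4 and Hk2 had an r of 0.83. Akt2 also had an r of 0.78 with the adipocyte score and 0.75 with the thermogenic adipocyte score. The part of these cells in its values was not tested beyond the fits with those scores.

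Tbc1d4 (chr14:101442360-101609191, minus strand, 19 exons) had 3674, 2901, 4064 and 3240 normalized counts in CON-LFD tissue, 6058, 2483, 2683 and 3614 in DIO-HFD, 4470, 3339, 3588 and 4588 in DIO-LFD and 4810, 4436, 3782 and 4345 in DIO-VSG. The means were 3470 ± 507, 3710 ± 1641, 3996 ± 626 and 4343 ± 425 and all ranges overlapped. The log2 change relative to DIO-HFD was 0.19 ± 0.23 in DIO-LFD and 0.32 ± 0.23 in DIO-VSG, and in DIO-HFD relative to CON-LFD it was 0.014 ± 0.23. Without DIO-HFD replicate 1 these values were 0.46, 0.58 and -0.25. The highest library, DIO-HFD replicate 1, was the lowest of all for Slc2a4. Among the members Tbc1d4 had negative r values with all 9 others, from -0.50 with Irs3 to -0.11 with Slc2a1. Its r was 0.83 with the T cell score and 0.76 with the B cell score, against -0.66 with the adipocyte score. The 15 T cell markers summed to 1744 to 43422 normalized counts in CON-LFD, 1830 to 65302 in DIO-HFD, 11795 to 25098 in DIO-LFD and 37541 to 59710 in DIO-VSG tissue. The Tbc1d4 value in DIO-VSG relative to CON-LFD was 0.33 ± 0.23 (unadjusted P = 0.165, adjusted P = 0.412). With a lymphocyte score in the fit it was -0.070. The part of lymphocytes in these values was not tested beyond that fit.

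**Figure D4:**
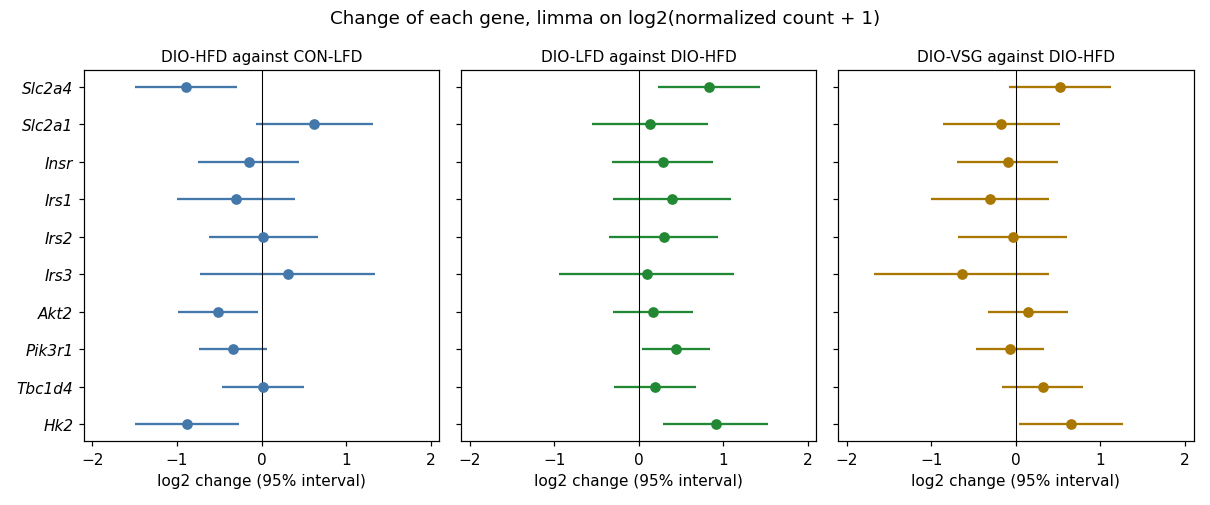
Log2 change of each of the 10 genes with its 95% interval in the 3 comparisons that share the DIO-HFD libraries (limma, log2(normalized count + 1), n = 4 per group). The intervals of Slc2a4, Akt2 and Hk2 lie below 0 in the left panel, those of Slc2a4, Pik3r1 and Hk2 above 0 in the middle panel and that of Hk2 above 0 in the right panel.

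At an unadjusted P value below 0.05, 3 of 10 members (Slc2a4, Akt2 and Hk2, all lower) were counted in DIO-HFD against CON-LFD, where 12.9% of all tested genes were. In DIO-LFD against DIO-HFD the count was 3 (Slc2a4, Pik3r1 and Hk2, all higher) beside 8.53% of all genes. In DIO-VSG against DIO-HFD it was 1 (Hk2) beside 13.2%, in DIO-VSG against DIO-LFD 1 (Pik3r1) beside 9.71%, in DIO-LFD against CON-LFD 1 (Slc2a1) beside 6.26% and in DIO-VSG against CON-LFD 1 (Pik3r1) beside 17.8%. In DIO-HFD against the other 3 groups it was 2 (Slc2a4 and Hk2) beside 11.6%. With 10 members, a count of 1 is near this background, and the counts of 2 and 3 rest mostly on the same genes, Slc2a4 and Hk2.

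The groups did not overlap for 1 member (Pik3r1) in DIO-HFD against CON-LFD, where 4.76% of all genes did not overlap, for 2 members (Slc2a4 and Hk2) in DIO-LFD against DIO-HFD (4.51% of all genes) and for 1 member (Pik3r1) in DIO-VSG against CON-LFD (7.02% of all genes). No member was without overlap in DIO-VSG against DIO-HFD (6.59% of all genes), DIO-VSG against DIO-LFD (18.8%), DIO-LFD against CON-LFD (3.53%) or DIO-HFD against the other 3 groups (0.566%). In DIO-LFD relative to DIO-HFD all 10 members had a positive log2 change (median 0.29, against 0.0088 over all tested genes), and in DIO-VSG relative to DIO-LFD 9 of 10, Tbc1d4 excepted, had a negative one (median -0.32, against -0.022). Of the 20 adipocyte markers 17 were positive in the first of these comparisons (median 0.33) and all 20 were negative in the second (median -0.41). In the second, 19 were negative without DIO-VSG replicate 2 (median -0.24), and 16 were without the 3 libraries highest in muscle markers (median -0.18) or with quantile normalization (median -0.25). Without DIO-HFD replicate 1, 9 members (median 0.17) and 10 adipocyte markers (median 0.027) were positive in DIO-LFD against DIO-HFD. What part adipocyte content has in the members' values was not tested beyond the fits with its score. In DIO-VSG relative to DIO-HFD 4 of 10 were positive (median -0.051, against 0.020). These comparisons share libraries, so their signs are not independent of each other. When replicate 1 of DIO-HFD and of DIO-LFD was left out, Insr, Irs2, Irs3 and Akt2 turned negative in DIO-LFD against DIO-HFD, at -0.22, -0.13, -0.57 and -0.036, and 7 of 20 adipocyte markers were positive (median -0.21).

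Levels between genes were compared per kilobase of transcript over the 16 libraries. Akt2 was highest (3158 ± 768 normalized counts per kilobase, SD, n = 16), followed by Slc2a4 (2729 ± 816) and Pik3r1 (2295 ± 580), which overlapped with each other. Insr (1189 ± 432), Irs2 (1080 ± 391) and Hk2 (1015 ± 337) were about level. Irs3 (672 ± 339), Slc2a1 (620 ± 262), Tbc1d4 (598 ± 140) and Irs1 (571 ± 193) formed the lowest set and did not differ beyond their spread. From the lowest to the highest library, Irs3 varied 5.30 times, Slc2a4 4.74, Slc2a1 4.35, Irs1 4.33 and Hk2 3.75 times, and the other members 2.20 to 3.42 times. Of the related genes, Slc2a3 varied 13.4 times, Akt1 1.33 and Hk1 1.32 times.

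The promoter sequences of Hk2 and Akt2, which went with Slc2a4 across libraries, and of Slc2a1, which did not, are given for the 250 bases before the start, from RefSeq on GRCm38.p6. Of the 10 members 8 matched the promoter table. Sequences run 5′ to 3′ on the strand of the gene, with the capitals marking matches on either strand to a GC box, spelled GGGCGG, or to the motif CCAAT. The regions are chr6:82774455-82774704 (minus strand) for Hk2, chr7:27591302-27591551 (plus strand, the outermost of the listed starts) for Akt2 and chr4:119108495-119108744 (plus strand) for Slc2a1.
Hk2: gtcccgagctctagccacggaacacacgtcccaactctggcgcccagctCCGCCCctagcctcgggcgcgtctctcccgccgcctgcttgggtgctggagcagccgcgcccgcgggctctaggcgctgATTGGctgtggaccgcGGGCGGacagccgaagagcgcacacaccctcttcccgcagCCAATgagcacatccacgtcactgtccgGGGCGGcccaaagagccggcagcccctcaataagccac
Akt2: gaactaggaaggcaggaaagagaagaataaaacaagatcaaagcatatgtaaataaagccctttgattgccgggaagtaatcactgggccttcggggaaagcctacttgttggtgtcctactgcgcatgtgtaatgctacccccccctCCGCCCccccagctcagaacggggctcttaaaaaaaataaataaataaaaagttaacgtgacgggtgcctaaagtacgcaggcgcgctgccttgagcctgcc
Slc2a1: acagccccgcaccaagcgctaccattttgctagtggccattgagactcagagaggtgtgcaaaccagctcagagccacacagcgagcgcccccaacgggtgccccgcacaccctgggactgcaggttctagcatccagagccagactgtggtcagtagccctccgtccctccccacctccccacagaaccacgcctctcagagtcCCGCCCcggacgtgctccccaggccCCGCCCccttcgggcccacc
Hk2 held 3 GC boxes and 2 CCAAT boxes in this window, Akt2 1 GC box and Slc2a1 2 GC boxes. A GC box was in all 8 member promoters matched, 1 to 4 times each, and a CCAAT box in 4 of them. Of 27025 promoters of the same length, those of all genes in the table, 33.0% held a GC box and 34.5% a CCAAT box, and no test was made of the difference. CACGTG, an E-box that also binds the carbohydrate-responsive factor encoded by Mlxipl, was in 6.04% of all promoters and, of the 8 members, in those of Irs1 and Irs2 once each. The starts used for Irs1 and Irs2 were not found near the beginning of their GENCODE transcripts, unlike those of the other members matched. GTAAACA, a core bound by forkhead factors such as FoxO1, was in 3.06% of promoters, TGACGTCA, a cyclic AMP response element, in 1.60%, and neither was in any of the 8. A match is only a description of the letters in this window.

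Genes around the members were taken from lists of the pathway. No gene of any of the 7 lists passed the adjusted threshold with limma in any comparison, and the counts that follow are at an unadjusted P value below 0.05. Of 33 tested genes upstream in insulin signalling, 4 were lower and 2 were higher in DIO-HFD against the other 3 groups, with a median log2 change of 0.0017. Of all tested genes 6.66% were lower and 4.98% higher at this threshold, the shares to read each list count of this comparison against. The 3 with the smallest P values against the other groups were Sh2b2, Pde3b and Gsk3a. Sh2b2, which encodes the adaptor APS at the insulin receptor, had 809 to 1111 normalized counts in DIO-HFD and 1331 to 3125 in all other libraries (-1.11 ± 0.23 in DIO-HFD against the other 3 groups, unadjusted P = 0.000307, adjusted P = 0.118). Pde3b, the phosphodiesterase through which insulin restrains lipolysis, was at -0.75 ± 0.20 (adjusted P = 0.182) and Gsk3a at -0.19 ± 0.06 (adjusted P = 0.269). Of 19 inhibitors of the pathway, 1 was higher and none lower in DIO-HFD against the other 3 groups. Inpp5k was at 0.18 ± 0.08 and Ptprf at -0.26 ± 0.17.

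Of 20 tested genes of GLUT4 vesicle trafficking, 1 was lower and none was higher in DIO-HFD against the other 3 groups (median -0.015). It was Ralgapa2 (-0.63 ± 0.18, unadjusted P = 0.00366, adjusted P = 0.212), part of a complex that restrains a Ral GTPase. Rab14 (-0.09 ± 0.05) and Myo1c (0.22 ± 0.12) followed. Of 9 tested hexose transporters other than the members, 2 were higher and 1 was lower in that comparison. The lower one, Slc2a5, encodes the fructose transporter GLUT5 and had 6.55 to 34.3 normalized counts in DIO-HFD tissue, 55.3 to 367 in CON-LFD, 10.9 to 859 in DIO-LFD and 14.5 to 790 in DIO-VSG (-4.10 ± 1.13, adjusted P = 0.201). Slc2a10 (0.66 ± 0.26) and Slc2a9 (0.33 ± 0.15) were the higher ones.

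The 22 listed glycolysis genes, which include other hexokinase genes and the steps after them but not Hk2, leaned the same way as Hk2. In DIO-HFD against the other 3 groups 19 of 22 had a negative log2 change, 5 of them at an unadjusted P value below 0.05 beside 6.66% of all genes (median -0.32, against -0.0073 over all tested genes). In DIO-HFD relative to CON-LFD 17 of 22 were negative and 1 of them was below 0.05 beside 7.66% of all genes (median -0.25). In DIO-LFD relative to DIO-HFD 19 of 22 were positive, 4 below 0.05 beside 5.37% of all genes (median 0.35). In DIO-VSG against DIO-HFD 18 of 22 were positive, 1 below 0.05 beside 5.05% (median 0.25). The counts of 1 were near or below these shares. Aldoa, which encodes aldolase A, had a log2 change of -0.81 ± 0.29 in DIO-HFD against the other 3 groups (unadjusted P = 0.0131, adjusted P = 0.289). Gpi1, the isomerase after hexokinase, was at -0.29 ± 0.12 (adjusted P = 0.370). Several of these genes, Aldoa and Eno3 among them, are also strongly used by skeletal muscle, whose markers were high in 3 libraries outside the DIO-HFD group.

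Of 12 genes listed as regulators of Slc2a4 transcription, 3 were lower and none was higher in DIO-HFD against the other 3 groups (median -0.10). Whether any of them acts on Slc2a4 in this tissue was not tested. Srebf1, which encodes the insulin-induced lipogenic factor SREBP-1, had 5739 to 8827 normalized counts in DIO-HFD and 8923 to 18029 in all other libraries (-0.85 ± 0.16, unadjusted P = 9.35e-05, adjusted P = 0.103). Mlxipl, which encodes the glucose-sensing factor ChREBP, was at -0.76 ± 0.26 (adjusted P = 0.272), and Klf15, which encodes a factor that activates Slc2a4, at -0.61 ± 0.20 (adjusted P = 0.247). Klf15 was at -0.96 ± 0.24 in DIO-HFD relative to CON-LFD and at 0.18 ± 0.24 in DIO-VSG relative to DIO-HFD. The list shares Pparg and Cebpa with the adipocyte markers, and Klf15 with the list of genes that FoxO factors induce. Its score had an r of 0.88 with both Slc2a4 and Hk2 over the 16 libraries. Of 11 tested genes that FoxO factors induce, and that insulin therefore represses, 2 were higher and 2 lower in DIO-HFD against the other 3 groups, with Klf15 1 of the lower ones and so counted in both lists. Pck1, the enzyme of glyceroneogenesis in fat, was at -1.28 ± 0.32 (adjusted P = 0.160), and Cited2 was at 0.56 ± 0.20 (adjusted P = 0.291).

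The tested genes most like Slc2a4 across the 16 libraries, of 14807 with a mean of at least 100 normalized counts, were A530016L24Rik (r = 0.96), Pgm2 (0.95), Ywhag (0.93), Spryd7 (0.92) and Reep6 (0.92). Pgm2, a phosphoglucomutase gene, had 2965 to 6767 normalized counts in DIO-HFD and 5568 to 9518 in all other libraries. Most like Slc2a1 were Gm2115 (0.92), Rundc3a (0.92), Pvt1 (0.91), Gm5913 (0.90) and Cct7 (0.89). Most like Irs2 were Selk (0.89), G0s2 (0.89), Spry4 (0.88), Spryd4 (0.85) and Necap1 (0.84). G0s2 encodes an inhibitor of lipolysis that insulin induces, and Spry4 encodes an inhibitor of receptor tyrosine kinase signalling. The 3 sets had no gene in common.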

How the data were processed

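Total RNA of 16 samples was sequenced as paired 76-base reads. The submitters' processing notes name TopHat2 2.0.7, HTSeq 0.5.3p9, DESeq2 and mm10, whereas the study's methods describe STAR, salmon and a Gencode annotation on GRCm38. The deposited unit was log2, from a variance-stabilizing transformation that the authors made with DESeq2 (lowest value 5.36, highest 21.85), although the table was named normalized counts. The transformation was inverted to normalized counts, and dividing by each library's step gave whole reads for 100% of values (tolerance 0.01), 46907377 to 57610899 per library, with size factors of 0.904 to 1.22. Counting error at this depth is small beside the spread between mice. No value column was left without a sample, and replicates differed by more than counting noise (chi-square per gene at least 72.7 over 24 pairs), so each counted once. Each library carries a number of its own in its label, read here as that of a mouse.

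A gene was kept if 4 or more libraries reached 10 normalized counts, which left 21218. The 4 groups were fitted together by limma (version 3.58.1, trend option, under R 4.3.3), taking log2 after a pseudocount of 1, with 2-sided P values, with Benjamini-Hochberg adjustment and a threshold of 0.05. This scale understates changes of low genes. The procedure was run on simulated counts with the same dispersion (spread beyond counting noise) for every gene and no differences in tissue content. Those counts were simpler than the real libraries, and no result here rests on them. Pathway genes were named as the 3 of each list with the smallest P value in DIO-HFD against the other 3 groups, or all that passed the adjusted threshold, and similar genes as the 5 with the highest r; some genes that this rule names are not reported here. Marker and list scores are means of log2 deviations. Positions and transcript lengths were those of GENCODE M21 on GRCm38. The fit used log2 values because that is the deposited unit, with limma-voom on the recovered reads as 1 of 33 alternatives, 16 of which left out 1 library each and 2 of which (leaving out the 3 libraries highest in muscle markers, and leaving out replicate 1 of DIO-HFD and DIO-LFD together) were chosen after seeing the data. The members and lists were chosen with earlier results of these data known.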

Additional observations from a re-analysis of the deposited data

Results flagged for a closer look

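Within the groups of 4, 4 of 40 combinations of gene and group held a library whose gap to its nearest neighbour, as a share of the group's range in log2(normalized count + 1), exceeded the 95% critical value of Dixon's test. Chance alone gives about 1 in 20 groups, or 2 of 40. Slc2a4 in DIO-HFD replicate 1, at 2198 normalized counts against 5265 to 6089 in the others, had a ratio of 0.857. That library was also the lowest for Hk2 and for the adipocyte score (-1.15) and the highest for Tbc1d4. Insr in DIO-LFD replicate 1, at 24623 against 9266 to 10092, had a ratio of 0.913, in the library with an erythroid score of 4.00. Irs2 in CON-LFD replicate 4, at 7741 against 5533 to 5838, had a ratio of 0.840. Hk2 in CON-LFD replicate 3, at 4313 against 7017 to 7471, had a ratio of 0.886; this library had the lowest Slc2a4 and Akt2 values of its group and its highest T cell score (1.56). The cause was not tested in any of these.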

How the results depend on the processing

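Over 33 alternatives (32 for DIO-HFD against the other 3 groups), 25 of the 42 member changes given kept their sign, those of Slc2a4, Hk2 and Pik3r1 in DIO-HFD against CON-LFD and in DIO-LFD against DIO-HFD among them, and the other 17 were all within 0.33 of 0 on the log2 scale. Settings that leave the compared group means as they are, such as another filter or leaving out a library of another group, could not alter a sign. The cause of the differences between settings was not tested. Sign changes follow, as log2 changes. With the adipocyte score as a covariate they were Insr 0.072 and Tbc1d4 -0.20 in DIO-HFD against CON-LFD, Irs3 -0.41 and Akt2 -0.028 in DIO-LFD against DIO-HFD, Irs2 0.0094 in DIO-VSG against DIO-HFD and Irs2 0.061 in DIO-HFD against the other 3 groups. With the thermogenic score they were Insr 0.13, Irs1 0.047 and Tbc1d4 -0.35, then Irs3 -0.26 and Akt2 -0.145, then Akt2 -0.18, and Irs2 0.059, in the same order of comparisons. Without replicate 1 of both DIO-HFD and DIO-LFD they were Insr 0.0076 and Tbc1d4 -0.25, then Insr -0.22, Irs2 -0.13, Irs3 -0.57 and Akt2 -0.036, then Akt2 -0.020, and Irs2 0.16. With array quality weights they were Irs2 -0.34 and Irs3 -0.071, then Akt2 -0.068, then Slc2a1 0.23, Insr 0.061, Irs2 0.39 and Akt2 -0.0029. With the muscle score they were Irs2 -0.020 in DIO-HFD against CON-LFD, and Insr 0.00145 and Pik3r1 0.046 in DIO-VSG against DIO-HFD, where quantile normalization gave Pik3r1 0.0082. With the lymphocyte score they were Tbc1d4 -0.092 in DIO-HFD against CON-LFD, Insr 0.17 and Irs2 0.20 in DIO-VSG against DIO-HFD and Tbc1d4 -0.070 in DIO-VSG against CON-LFD. Without the 3 libraries highest in muscle markers they were Tbc1d4 -0.015 in DIO-HFD against CON-LFD and Irs2 0.077 in DIO-VSG against DIO-HFD.

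Leaving out 1 library at a time, with the other groups' spread assumed for the rest, gave in DIO-HFD against CON-LFD Insr -0.32 to 0.0076, Irs2 -0.28 to 0.17, Irs3 -0.0073 to 0.70 and Tbc1d4 -0.25 to 0.18. In DIO-LFD against DIO-HFD it gave Slc2a1 -0.18 to 0.36, Insr -0.056 to 0.45 and Irs3 -0.30 to 0.41. In DIO-VSG against DIO-HFD it gave Slc2a1 -0.34 to 0.051, Insr -0.26 to 0.074, Irs2 -0.19 to 0.26 and Akt2 -0.020 to 0.305, and in DIO-HFD against the other 3 groups Irs2 -0.38 to 0.072.

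No alternative but array quality weights put a member past the adjusted threshold, 2 in DIO-HFD against CON-LFD and 3 in DIO-HFD against the other 3 groups. Counts of members at an unadjusted P value below 0.05 differed by more than 1.5 times as follows, each with the share of all tested genes at that setting in parentheses. With array quality weights they were 2 in each of DIO-VSG against DIO-HFD (33.9%), DIO-VSG against DIO-LFD (25.9%), DIO-LFD against CON-LFD (17%) and DIO-VSG against CON-LFD (37.4%), and 4 in DIO-HFD against the other 3 groups (35.6%). With the thermogenic score they were 0 in DIO-HFD against CON-LFD (3.93%), DIO-LFD against DIO-HFD (4.08%) and DIO-VSG against CON-LFD (13.7%), 2 in DIO-VSG against DIO-LFD (12.5%) and 1 in DIO-HFD against the other 3 groups (7.10%). In DIO-VSG against DIO-HFD they were 3 with the adipocyte score (22.2%), 2 with the lymphocyte score (10.5%) or without replicate 1 of DIO-HFD and DIO-LFD (28.3%), and 0 with the muscle score (16.6%) or with only the 2 groups in the fit (12%). In DIO-VSG against DIO-LFD they were 2 with a pseudocount of 8 (10.1%), no filter (9.31%), the replicate block (8.81%) or only the 2 groups (25.3%), and 0 with quantile normalization (10.5%). In DIO-LFD against CON-LFD they were 3 with the adipocyte score (10.2%) and 0 with only the 2 groups (4.90%), without the libraries highest in muscle markers (4.07%) or without replicate 1 of DIO-HFD and DIO-LFD (6.58%). In DIO-VSG against CON-LFD they were 2 with only the 2 groups (20.7%) and 0 with the replicate block (16%), quantile (18.1%) or upper-quartile scaling (17.6%), robust empirical Bayes (17.6%), or the adipocyte (7.25%) or lymphocyte score (4.99%). Leaving out 1 library gave 0 to 2 in DIO-VSG against DIO-HFD (7.47% to 27.5%), DIO-VSG against DIO-LFD (5.11% to 13.3%) and DIO-LFD against CON-LFD (3.96% to 12.5%), and 0 to 1 in DIO-VSG against CON-LFD (8.95% to 30.5%). Over 24 same-numbered pairs of libraries the correlation of deviations ran from -0.609 to 0.534, and 9 exceeded 0.1. Pairs with unequal numbers were not compared, so these values cannot show whether equal numbers pair the samples. Depth does not limit the members, whose lowest level was 586 normalized counts.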

Other observations

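The 2 ways of losing weight, DIO-VSG against DIO-LFD, were also compared on the pathway lists. Of 22 glycolysis genes 19 had a negative log2 change in DIO-VSG relative to DIO-LFD (median -0.19), none at an unadjusted P value below 0.05 by limma. Of 12 genes listed as regulators of Slc2a4 transcription 9 were negative, 1 of them below 0.05 (median -0.26). Of 11 genes that FoxO factors induce 8 were negative and 2 positive ones were below 0.05 (median -0.31). The 33 upstream signalling genes had 20 negative values (median -0.099), 2 higher and 1 lower below 0.05, and the 19 inhibitors had 7 (median 0.062), with 2 lower below 0.05. No gene of these lists passed the adjusted threshold, and over all tested genes the median was -0.022, with 4.3% higher and 5.41% lower below 0.05, shares near which most of these counts lie. The adipocyte (20 of 20, median -0.41, or 19 of 20 and -0.24 without DIO-VSG replicate 2), endothelial (10 of 10, median -0.54) and mammary epithelium markers (15 of 15, median -0.54) had negative log2 changes, and the T cell (15 of 15, median 1.45) and B cell markers (15 of 15, median 1.21) positive ones. Macrophage (12 of 15, median -0.47), stromal progenitor (8 of 10, -0.40), erythroid (7 of 7, -0.82) and skeletal muscle markers (14 of 17, -0.22) were mostly negative. Thermogenic adipocyte markers were positive for 7 of 10 (median 0.027). At an unadjusted P value below 0.05, 2 endothelial, 2 macrophage, 1 stromal progenitor and 1 epithelial marker were lower and 1 T cell marker was higher. The part of all these cells in the list values was not tested.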
